A study of Mus musculus with 4 samples.

Results

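The small leucine-rich proteoglycans (SLRPs) are a family of secreted matrix proteins, and 10 of their genes were followed here in mouse embryonic fibroblasts (MEFs), the connective-tissue cells that grow out of minced embryos. The genes were Aspn (asporin), Dcn (decorin), Bgn (biglycan), Lum (lumican), Fmod (fibromodulin), Ogn (osteoglycin), Omd (osteomodulin), Prelp, Kera (keratocan) and Epyc (epiphycan). Every gene probe of the array that carried one of these names was used, whatever its value, which gave 14 probes of 41174. The family was taken because the study had followed asporin in these same cultures, so the ratio of Aspn itself is a description.

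The study asked how MEFs that lack cyclin G1 or cyclin G2, a pair of related cyclins of the DNA damage response, differ from wild type (WT). G1KO MEFs came from CycG1-/- mice and were compared with MEFs of CycG1+/+ mice. G2KO MEFs came from CycG2-/- mice and were compared with MEFs of CycG2+/+ mice, so each comparison had a WT culture of its own. The strain of all 4 cultures was given as C57BL/6J, although the source name of the G2KO pair reads C57BL/7J. The cells came from embryos at mid-gestation and were untreated and in logarithmic growth when RNA was taken. The Ccng1 gene had been disrupted in the germ line by a neomycin cassette in place of the exons that encode the protein. Neither the number of embryos behind a culture nor the deleted part of Ccng2 is given in the sources used here.

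RNA of a knockout and of its WT was hybridised together on arrays of 2 colours, with the dyes Cy5 and Cy3 exchanged on a second array. Each of the 2 comparisons thus had 2 arrays of the same RNA pair, which count as 1 replicate per genotype. Values are log2 ratios of knockout over WT, given as the mean ± SD of both arrays, and this SD holds technical error alone. Its median over all detected probes was 0.082 for G1KO and 0.081 for G2KO. No p-value can be had from 1 replicate, so a probe was called when it differed at least 2-fold in the same direction on each array, and no difference below was checked in a separate culture. A probe was detected, and tested in this sense, where it was well above background on both arrays in at least 1 genotype.

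The labels were checked first. Ccng1 mRNA was lower in G1KO by both of its probes, with log2 ratios of -6.67 ± 0.13 and -4.96 ± 0.08. Ccng2 mRNA was not lower in the RNA labelled G2KO, with a log2 ratio of 0.09 ± 0.27, while Ccng1 was higher there, at 2.67 ± 0.03. As the deleted part of Ccng2 is unknown here, its probe may lie outside it. The name G2KO below therefore stands for the RNA labelled so, and every direction given for it rests on that label. Xist, the RNA of the inactive X chromosome, had log2 ratios of 7.54 ± 0.43 in G1KO and 7.24 ± 0.46 in G2KO, and the Y-linked Ddx3y had ratios of -4.97 ± 0.24 and -4.26 ± 0.23. Sex and genotype, which both differed within each pair, cannot be told apart. The submitters' names for the arrays also carry a different culture number for each genotype of a pair and, for 3 of the 4 cultures, a number after the letters PDL that is not the same in G1KO and its WT, so these differences cannot be told apart from genotype either.

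SLRP core proteins consist largely of leucine-rich repeats, and most of them bind collagen fibrils and help to set the thickness and spacing of these fibrils. Many carry sulfated sugar chains, and several bind growth factors of the transforming growth factor β (TGF-β) family. Decorin, biglycan and asporin form class I, whose first members carry chondroitin or dermatan sulfate, while asporin has an aspartate-rich stretch instead. Lumican, fibromodulin, osteomodulin, PRELP and keratocan form class II, and osteoglycin and epiphycan belong to class III. Fibroblasts of skin, tendon and embryo are a known source of several of them. The genes lie in clusters, with Aspn, Omd and Ogn on chromosome 13, Dcn, Lum, Kera and Epyc on chromosome 10, Fmod and Prelp on chromosome 1, and Bgn alone on the X chromosome.

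The 4 genes with the lowest log2 ratios in G2KO, Aspn, Omd, Ogn and Bgn, are shown by the 250 bases before their transcription start (RefSeq, build GRCm38.p6), 5′ to 3′ in the direction of the gene. These sequences are given because the first 3 are neighbours that moved together in G2KO. Capitals mark matches, on either strand, to 6 short motifs, which can overlap. These are the TATA box as TATAAA, the CCAAT box as its own letters, the GC box of SP factors as GGGCGG, the site of AP-1 as TGANTCA, the E-box as CANNTG and the core bound by SMAD proteins as CAGAC.

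Aspn, chr13:49544193-49544442, plus strand: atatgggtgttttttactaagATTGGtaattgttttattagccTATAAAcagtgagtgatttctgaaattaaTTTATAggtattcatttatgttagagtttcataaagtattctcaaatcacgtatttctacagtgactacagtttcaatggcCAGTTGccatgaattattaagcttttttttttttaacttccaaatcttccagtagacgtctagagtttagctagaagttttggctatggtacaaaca
Omd, chr13:49582212-49582461, plus strand: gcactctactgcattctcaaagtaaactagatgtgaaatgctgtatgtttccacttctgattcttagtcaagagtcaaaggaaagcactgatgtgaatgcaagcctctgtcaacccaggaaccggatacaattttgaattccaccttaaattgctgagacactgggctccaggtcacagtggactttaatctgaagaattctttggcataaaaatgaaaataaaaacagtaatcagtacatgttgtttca
Ogn, chr13:49607765-49608014, plus strand: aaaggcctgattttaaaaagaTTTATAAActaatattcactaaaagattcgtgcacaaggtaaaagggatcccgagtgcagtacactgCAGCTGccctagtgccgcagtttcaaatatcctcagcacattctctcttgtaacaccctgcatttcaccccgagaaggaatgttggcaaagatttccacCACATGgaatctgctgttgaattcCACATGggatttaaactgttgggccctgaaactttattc
Bgn, chrX:73483351-73483600, plus strand: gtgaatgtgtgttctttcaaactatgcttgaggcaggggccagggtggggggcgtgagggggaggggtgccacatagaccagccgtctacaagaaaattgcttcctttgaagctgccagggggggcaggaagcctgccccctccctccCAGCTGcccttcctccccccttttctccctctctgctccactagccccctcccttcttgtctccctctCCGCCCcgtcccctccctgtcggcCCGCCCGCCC

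The 4 sequences shared few of these letters. The stretch before Aspn had a GC content of 30.0% and held 2 TATAAA matches, 207 and 178 bases before the start, 1 CCAAT and 1 CANNTG. That before Ogn, at 42.0% GC, also held 2 TATAAA matches, which overlap on opposite strands, with 3 CANNTG. No motif was matched before Omd, at 38.4% GC. The stretch before Bgn was of another kind, at 64.4% GC with 3 GGGCGG on the minus strand, the last 2 of them overlapping, and 1 CANNTG. Neither CAGAC nor TGANTCA occurred in any of the 4. Over windows from 250 bases before to 50 after the start of all 32851 RefSeq promoters, TATAAA was present in 13.6%, CCAAT in 37.4%, GGGCGG in 35.7%, TGANTCA in 7.8%, CANNTG in 72.3% and CAGAC in 49.6%. In such windows CAGAC was found 2 times at Fmod and 3 times at Prelp, both of which stayed uncalled in each comparison. In all, 8 of the 10 genes had a promoter in the table, which does not list Dcn and Lum.

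Some SLRP mRNAs differed between knockout and WT in both comparisons, Aspn and Omd in opposite directions and Dcn in the same direction. In G1KO, 10 probes of 8 genes were detected and 4 were called. Aspn, Lum and Omd were higher and Dcn was lower, against 5.79% of all 25541 detected probes called, 1.99% as higher and 3.80% as lower. In G2KO, 9 probes of 8 genes were detected and 6 probes of 5 genes were called, all of them lower, namely Aspn, Omd, Ogn, Dcn and both probes of Bgn. The background in G2KO was 6.37% of 25431 probes, 2.31% as higher and 4.06% as lower. All 9 detected probes of the family had a log2 ratio below 0 in G2KO, whereas 8 of 10 were above 0 in G1KO. With 1 probe per gene, the median log2 ratio of the family was 0.70 in G1KO and -2.60 in G2KO, beside -0.00 and -0.02 over all genes. These counts and medians include Aspn, for which the family was taken. The other detected genes had ratios from -4.15 to -0.17 in G2KO and from -4.05 to 1.31 in G1KO. Kera, Epyc and the second probe of Prelp were not detected in any RNA, so that their level has only the background as an upper limit.

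**Figure D1:**
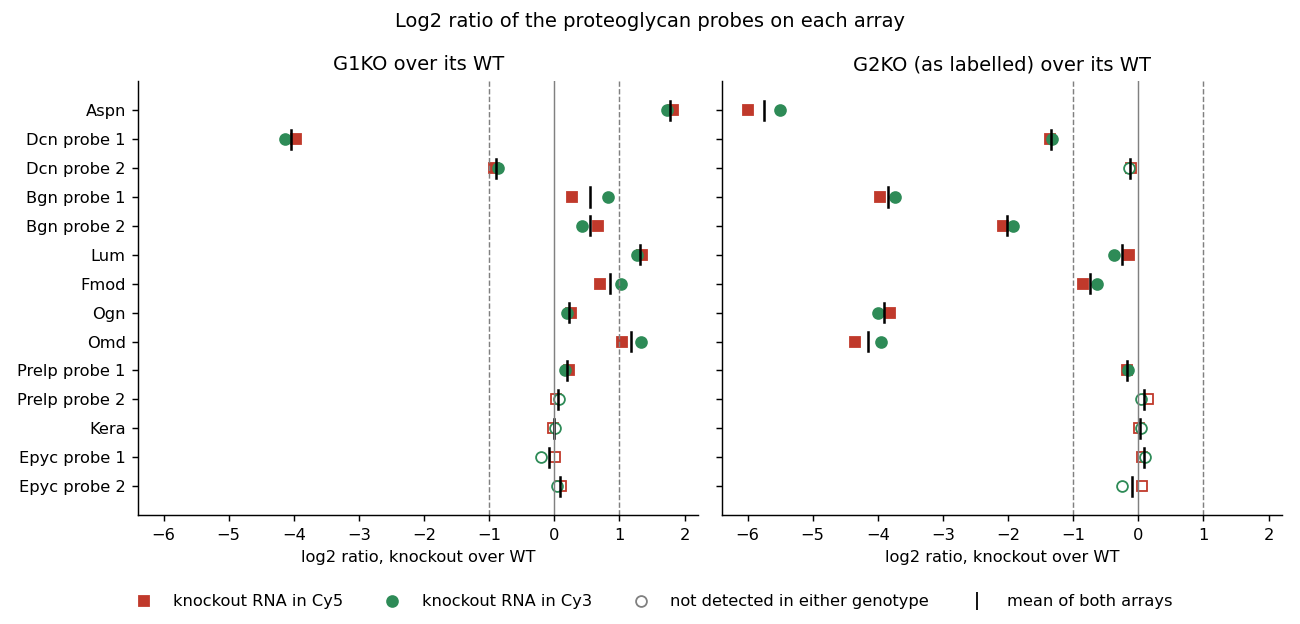
Log2 ratio of knockout over WT (horizontal axis) of each of the 14 SLRP probes, in G1KO at left and in the RNA labelled G2KO at right. Red squares are the arrays with knockout RNA in Cy5, green circles those with it in Cy3, open symbols the probes not detected in either genotype, black bars the mean of both arrays, and dashed lines 2-fold. Aspn and Omd lie right of the 2-fold line in G1KO and near -5.75 and -4.15 in G2KO, while the first probe of Dcn is left of it in both.

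Aspn, whose protein binds collagen and TGF-β, had the lowest ratio of the family in G2KO. Its normalised intensity, an arbitrary unit on which negative-control spots lie at 60 to 62, was 5555 (Cy5) and 5151 (Cy3) in the WT of G2KO but 80.7 and 122 in G2KO. Both G2KO values were close to the background and still well above it by the criterion of the scanner software. The log2 ratio of -5.75 ± 0.35, or 53.8-fold lower, ranked 3 from the lowest of 25431 probes. In the other comparison Aspn read 681 and 633 in G1KO against 190 and 193 in its WT. The 2 values of each RNA lay close together and the genotypes did not overlap, and the ratio of 1.78 ± 0.06 made Aspn 3.43-fold higher in G1KO. The probe of Aspn lies at chr13:49579047-49579106 on the plus strand. Probe positions are in build mm8, that of the array design.

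Omd encodes osteomodulin, a keratan sulfate proteoglycan first known from bone. It read 3062 (Cy5) and 3039 (Cy3) in the WT of G2KO and 149 and 198 in G2KO, a log2 ratio of -4.15 ± 0.28 and 17.7-fold lower. In G1KO it read 220 and 217 against 86.0 and 108 in the WT, a ratio of 1.18 ± 0.22. Omd thus resembled Aspn in being called in opposite directions in the 2 comparisons, and these were the only 2 of the 10 genes for which this held. Its level in the WT of G1KO was, however, not far above the negative controls. The probe lies at chr13:49604415-49604474.

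Ogn, which codes for osteoglycin, also known as mimecan, was bright in all 4 cultures. It read 19334 and 20635 in the WT of G2KO and 1468 and 1209 in G2KO, which gave -3.91 ± 0.13, or 15.0-fold lower. G1KO and its WT were within 1.17-fold, with 4633 and 4830 against 4203 and 3873, and the ratio of 0.23 ± 0.04 was not called. Ogn was thus lower with Aspn and Omd in G2KO and stayed uncalled where they were higher in G1KO. Its probe lies at chr13:49636117-49636176.

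Bgn encodes biglycan, a class I proteoglycan that can also be released from the matrix and bind Toll-like receptors. Its first probe (chrX:69745935-69745994) read 7913 and 9639 in the WT of G2KO and 618 and 593 in G2KO, a ratio of -3.85 ± 0.16. The second probe (chrX:69744406-69744465) was dimmer, with 310 and 270 in the WT and no signal well above background in G2KO, so that it was at least 4.01-fold lower. With the log ratio of the scanner software, which adds no offset, its G2KO ratio was -5.65, a value that rests on this background signal. Both probes gave 0.54 in G1KO, with SDs of 0.39 and 0.17, and neither was called. The arrays differed more for the first probe, with 0.27 where G1KO RNA was in Cy5 and 0.82 where it was in Cy3.

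Dcn, the gene of decorin, was the exception of the family, as the single member called lower in both comparisons. Its first probe (chr10:96947287-96947346) was among the brightest signals in the WT of G1KO, at 44246 and 50580, and read 3241 and 2521 in G1KO. The log2 ratio of -4.05 ± 0.12, or 16.6-fold lower, ranked 40 from the lowest of 25541 probes. In the WT of G2KO the same probe read 559 and 507, and in G2KO 198 and 224, a ratio of -1.34 ± 0.03. This smaller difference of 2.53-fold was no longer called on each array when these were centred on the median in place of loess, although the mean ratio was then -1.32. A second Dcn probe (chr10:96910401-96910460) was dim, with 135 and 119 in the WT of G1KO and no signal well above background in G1KO. It gave only a bound of at least 1.86-fold lower and was not called, and it was not detected in the G2KO pair. With the log ratio of the scanner software its G1KO ratio was -4.46, which likewise rests on a G1KO signal not well above background.

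Lum, the gene of lumican, lies beside Dcn and differed the other way in G1KO. It read 240 and 203 in G1KO against 83.8 and 94.7 in the WT, a ratio of 1.31 ± 0.04, whereas G2KO and its WT gave 129 and 134 against 173 and 142 and a ratio of -0.25 ± 0.16. Fmod, coding for fibromodulin of collagen-rich tissues, had ratios of 0.86 ± 0.23 in G1KO and -0.74 ± 0.15 in G2KO, both under the threshold. It was well above background on 1 of 2 arrays in the WT of G1KO, at 74.8 and 93.6, and it passed the threshold in 5 of 13 settings for G1KO and in 3 of 13 for G2KO. The brighter Prelp probe, of a proteoglycan that can anchor basement membranes to connective tissue, had ratios of 0.19 ± 0.05 and -0.17 ± 0.01. Lum, Fmod and Prelp were dim throughout, between 74.8 and 240, where the processing weighs most. With the log ratio of the scanner software, which adds no offset, the G1KO ratios were 2.85 for Lum, 2.38 for Fmod, 2.32 for Omd and 2.33 for Aspn, in the same direction. The probes of Lum, Fmod and Prelp lie at chr10:97002264-97002323, chr1:135863832-135863891 and chr1:135726768-135726827, the last on the minus strand. The 4 undetected probes, of Kera, Epyc and Prelp, stayed between 56.3 and 71.6 in every RNA.

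The 4 cultures could also be set side by side for each probe, by the level of each dye after normalisation between arrays. This comparison runs across separate arrays and has no ratio within an array behind it. The order for Aspn was WT of G2KO, G1KO, WT of G1KO and G2KO, with no overlap between neighbours over the 2 dyes. Ogn and the first probe of Bgn kept this order, with neighbours as close as 1.17-fold for Ogn and 1.32-fold for Bgn. For Omd the last places were exchanged, since the WT of G1KO was below G2KO. Dcn had an order of its own, from the WT of G1KO over G1KO and the WT of G2KO down to G2KO, and the top lay 225-fold above the bottom. For Fmod, G2KO and the WT of G1KO overlapped.

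**Figure D2:**
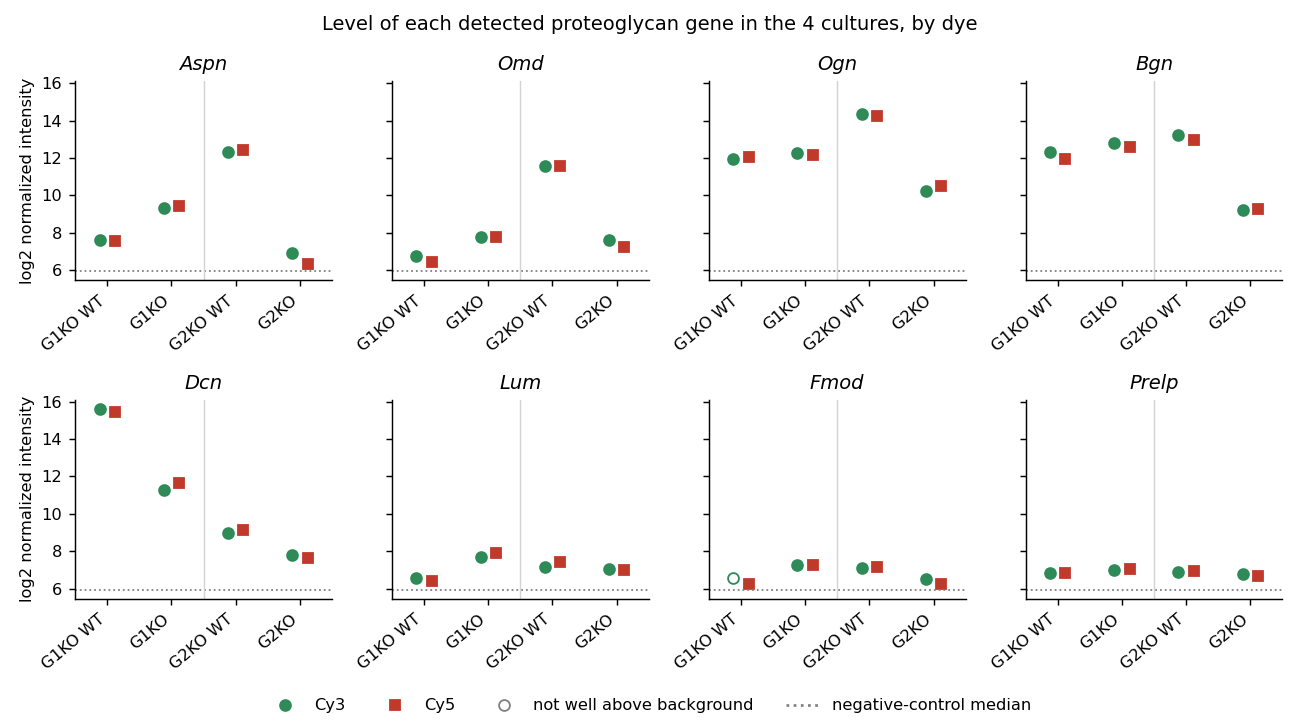
Normalised intensity on a log2 scale (vertical axis) of the brightest probe of each of the 8 detected SLRP genes in the 4 cultures, with G1KO WT and G2KO WT for the WT of each comparison. Green circles are Cy3 and red squares Cy5, an open symbol is not well above background, and the dotted line is the negative-control median. Aspn, Omd and Ogn peak in the WT of G2KO, whereas Dcn peaks in the WT of G1KO.

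The WT cultures were themselves far apart for part of the family. Of 10 SLRP probes detected in a WT, 4 differed at least 2-fold in each dye, beside 11.0% of 26128 detected probes (5.51% higher and 5.52% lower in the WT of G1KO). Dcn was higher in the WT of G1KO by a log2 difference of 6.47, which was 6.64 in Cy3 and 6.31 in Cy5, or 88.8-fold. Aspn was lower there by 27.9-fold, Omd by 31.7-fold and Ogn by 4.95-fold. The gap between the WT cultures exceeded the knockout ratio of G1KO for each of these 4 genes. It exceeded that of G2KO for Omd and Dcn, but not for Aspn and Ogn. Set against the WT of G1KO, G2KO was 1.93-fold lower for Aspn, 3.03-fold for Ogn and 225-fold for Dcn. For Omd, G2KO was 1.79-fold higher than the WT of G1KO. The direction of Aspn and Omd in G1KO was toward the level of the WT of G2KO, but G1KO stayed 8.15-fold and 14.0-fold below that WT. G1KO and G2KO differed by 6.60-fold for Aspn and 10.9-fold for the first probe of Bgn, both higher in G1KO, and by 1.27-fold for Omd.

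The chromosome 13 cluster was compared with the genes next to it. Probes of Aspn and Ogn lie 28.5 kb to either side of its centre. Over all detected probes, 1.99% were called higher and 3.80% lower in G1KO, and 2.31% and 4.06% in G2KO. Of 21 detected probes of other genes within 500 kb, 0 were called higher and 3 lower in G1KO, with a median log2 ratio of -0.31. In G2KO 0 of 20 were higher and 2 lower, with a median of -0.04. The probes called were those of Ninj1 (-1.70 ± 0.21 in G1KO and -1.96 ± 0.11 in G2KO), Card19 (-1.61 ± 0.24 and -1.44 ± 0.20) and Fgd3 (-1.77 ± 0.09 in G1KO), which lie at -318.1 to -399.8 kb from the centre on the side of Aspn. Between them and the cluster, and on its other side, no probe passed 2-fold. Cenpp, Nol8 and Iars, which flank the cluster and serve cell division, ribosome assembly and tRNA charging, had ratios between -0.42 and 0.26. Ecm2, a related leucine-rich gene beside Aspn, was not detected.

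The other loci differed in how much they could show. On chromosome 10 no probe of the 4 other genes within 500 kb was detected, so Dcn and Lum had no neighbour to be set against. Among all detected probes, 5.79% were called in G1KO and 6.37% in G2KO. Around Bgn, 27 probes of other genes were detected in G1KO, with 2 called higher and 4 lower, and 24 in G2KO, with 0 higher and 1 lower. Those called in G1KO were Xlr4b (3.30 ± 0.27), Xlr3c (at least 4.29-fold higher), both probes of Zfp185 (-1.17 ± 0.04 and -3.24 ± 0.24), Plxnb3 (-2.51 ± 0.04) and Srpk3 (-1.30 ± 0.03). In G2KO the single call was Dusp9, at -1.92 ± 0.01. Near Fmod and Prelp, Btg2 alone was called, with -1.01 ± 0.01 by 1 probe in G1KO and 1.18 ± 0.04 and 1.03 ± 0.02 by 2 probes in G2KO.

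**Figure D3:**
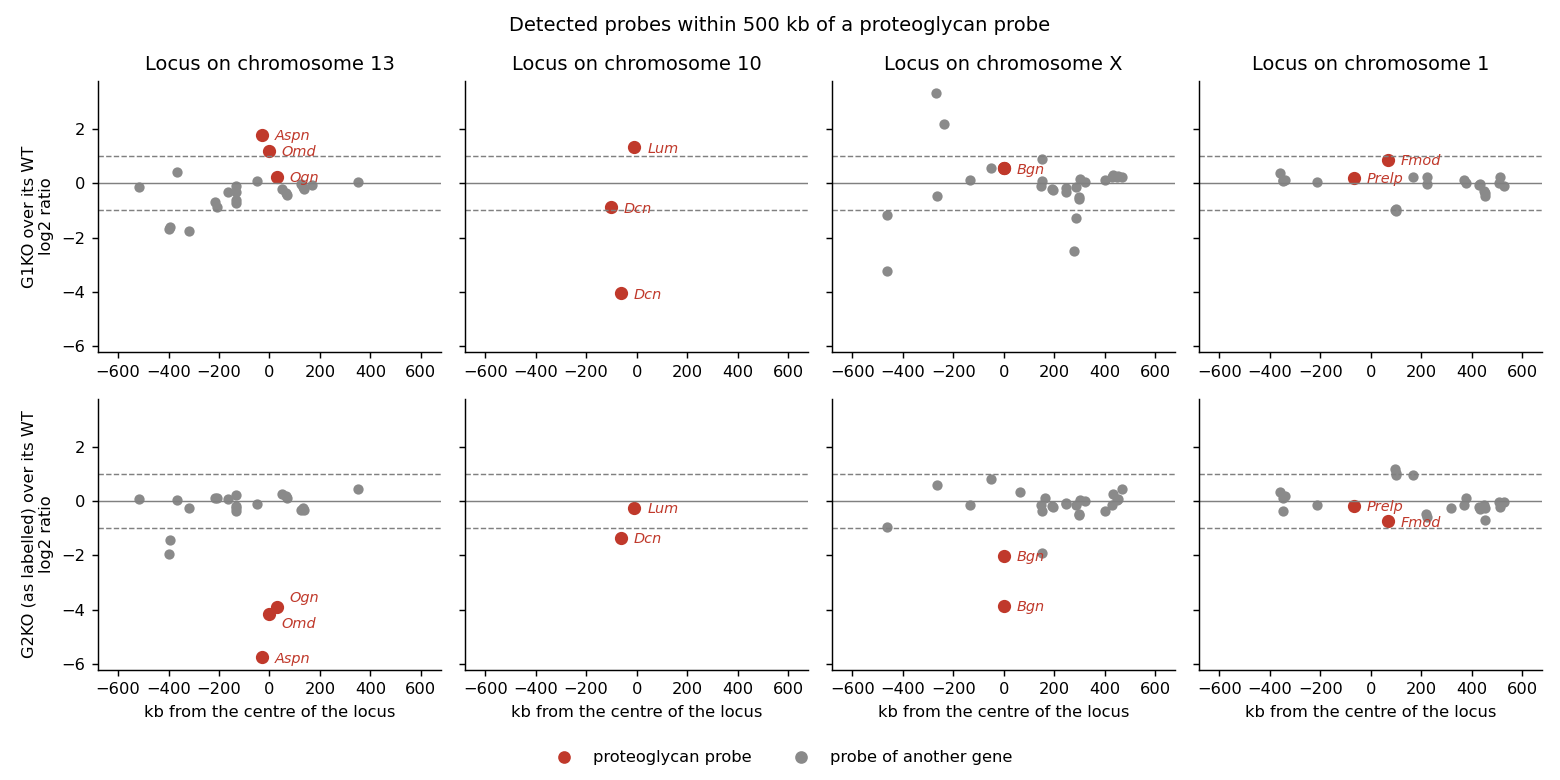
Log2 ratio of knockout over WT (vertical axis) of every detected probe within 500 kb of an SLRP probe, by distance in kb from the centre of the locus (horizontal axis), with G1KO above and the RNA labelled G2KO below. Red points are SLRP probes, grey points probes of other genes, and dashed lines mark 2-fold. In G2KO the 3 genes of the chromosome 13 cluster lie at -3.91 or lower, while the nearest detected neighbours lie around 0.

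The collagens that SLRPs bind differed in the same comparisons. In G1KO, 5 of 13 were called higher and 1 lower, against 6.95% of all 16530 genes (2.47% higher and 4.48% lower), with a median of -0.36. Those higher were Col11a1 (1.54 ± 0.16), Col12a1 (1.36 ± 0.03), Col5a1 (1.23 ± 0.05), Col6a3 (1.23 ± 0.14) and Col14a1 (at least 2.42-fold), and Col6a1 was lower, at -1.09 ± 0.05. In G2KO, 10 of 13 were called lower and 1 higher, against 7.56% of 16486 genes (2.72% higher and 4.84% lower), with a median of -1.90. The lowest were Col11a1 (-5.23 ± 0.19), a fibril-nucleating chain, Col6a3 (-4.99 ± 0.19), a chain of the beaded collagen VI filaments that biglycan and decorin bind, Col3a1 (-2.90 ± 0.14) and Col12a1 (-2.48 ± 0.01). Col5a3 was higher, at 1.19 ± 0.00. Probes of a gene did not always give the same value. In G1KO the other detected probes had 1.06 and 0.54 for Col11a1, 0.78 for Col12a1, 0.68 for Col5a1 and 0.45 and 0.15 for Col6a3, and of these the first alone was called. In G2KO they had -3.53 and -2.91 for Col11a1, -1.68 and -0.85 for Col6a3, -1.25 and -0.27 for Col3a1 and -1.83 for Col12a1.

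Enzymes that process or break down collagen and proteoglycans came next. In G2KO, 7 of 16 were called lower and none higher, against 4.84% and 2.72% of all genes. The median was -0.97 and all 16 had a ratio below 0. Lox, the collagen cross-linking oxidase, had -5.05 ± 0.10, Mmp2 (gelatinase A) -3.38 ± 0.17, Mmp3 (stromelysin) -3.22 ± 0.19 and Adamts4 (an aggrecanase) -2.18 ± 0.13. In G1KO 4 of 16 were called, against 6.95% of all genes, and the median of the list was -0.50. Mmp13 (-2.97 ± 0.10), Lox (-1.58 ± 0.25) and Adamts5 (-1.48 ± 0.00) were called lower and Loxl3 (1.39 ± 0.08) higher. Lox and Adamts5 thus stood with Dcn, lower in both comparisons.

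The enzymes that build the sugar chains of SLRPs were counted as 2 lists. Of 21 detected genes for chondroitin and dermatan sulfate, 1 was called in G1KO and 4 in G2KO, all lower, with medians of -0.15 and -0.14. Over all genes, 4.48% were called lower in G1KO and 4.84% in G2KO. Chst12, a chondroitin 4-sulfotransferase, was lower in both, at -1.49 ± 0.06 and -1.19 ± 0.07 (-1.11 and -0.92 by a second probe), and Chst11 (-1.45 ± 0.22, but -0.35 and -0.34 by other probes), Chst15 (-1.25 ± 0.12) and Chpf2 (-1.14 ± 0.12, but -0.60 by a second probe) in G2KO. Of 8 genes for keratan sulfate, Chst1, the keratan sulfate galactose 6-sulfotransferase, was higher in both comparisons, at 1.22 ± 0.02 and 2.95 ± 0.10. B4galt4 was lower in G1KO (-1.65 ± 0.11) and B4galt1 in G2KO (-1.06 ± 0.00, and -1.19 and 0.08 by other probes). These were 2 of 8 genes in each comparison, against 6.95% of all genes called in G1KO and 7.56% in G2KO. Medians of this list were -0.07 and -0.09.

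Of growth factors and receptors that SLRPs are known to bind, 1 of 21 was called in G1KO and 6 of 20 in G2KO. The share over all genes was 6.95% in G1KO and 7.56% in G2KO. Bmp4 was lower in both, at -1.40 ± 0.04 and -3.06 ± 0.06. In G2KO, Tgfb3 (-3.21 ± 0.01), Lgr4 (-2.57 ± 0.14, but -1.84 and -0.37 by other probes), Tlr2 (-2.25 ± 0.02) and Tlr4 (-1.70 ± 0.05) were lower, the last 2 being the receptors of free biglycan, and Met, a receptor bound by decorin, was higher (1.65 ± 0.08, and 1.38 and 0.84 by other probes). The medians were 0.02 and -0.21. Among 12 genes known to respond to SMAD signals, Tgfbi (2.69 ± 0.12 in G1KO and -3.40 ± 0.04 in G2KO) and Ltbp2 (1.96 ± 0.24 and -3.39 ± 0.00) went the way of Aspn, whereas Ccn2 went the opposite way, with -1.89 ± 0.38 and 1.90 ± 0.34. Id2 (1.64 ± 0.10) and Id1 (1.57 ± 0.09) were higher in G2KO. The SMAD list as a whole thus had no single direction, with 3 higher and 2 lower in G2KO, and medians of -0.37 and -0.20.

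Proteoglycans outside the family were mixed. In G1KO, Gpc1 (1.20 ± 0.02) was higher and Gpc3 (-1.94 ± 0.07), Prg4 (-1.42 ± 0.08), Spock2 (-1.32 ± 0.00, but -0.61 by a second probe), Sdc4 (-1.31 ± 0.16) and Cspg4 (-1.03 ± 0.02, but -0.92 and -0.30 by other probes) were lower, of 16 detected. In G2KO, 6 of 17 were lower and none higher, led by Cspg4 (-2.20 ± 0.00, but -1.86 and -0.64 by other probes), Gpc3 (at least 3.24-fold), Sdc2 (-1.60 ± 0.09) and Gpc4 (-1.39 ± 0.22). The share of all genes called was 6.95% in G1KO and 7.56% in G2KO. Medians of the list were 0.15 and -0.13. Of 8 related leucine-rich matrix genes, 4 were detected in G1KO and 5 in G2KO and none was called, Podnl1 coming closest in G1KO with 1.01 ± 0.07.

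**Figure D4:**
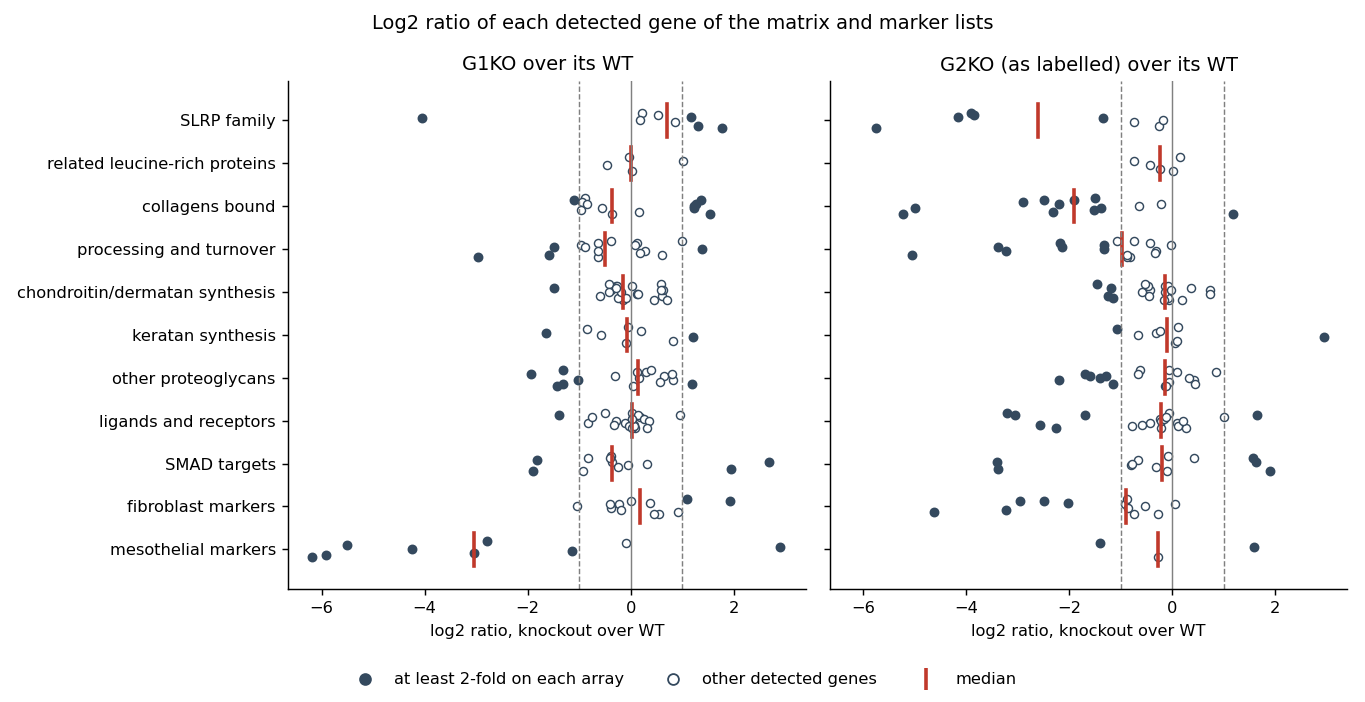
Log2 ratio of knockout over WT (horizontal axis) of each detected gene, 1 probe a gene, for the SLRP family and 10 related gene lists, in G1KO at left and the RNA labelled G2KO at right. Filled points are genes at least 2-fold apart on each array, open points the other detected genes, red bars the medians and dashed lines 2-fold. In G2KO the SLRP family and the collagens have medians of -2.60 and -1.90, and in G1KO the mesothelial markers have a median of -3.04.

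Markers of cell types were counted in the same way. Of 12 fibroblast markers, all were well above background in 3 of the cultures and all but Fap in G2KO. In G2KO 5 were called lower, against 4.84% of all genes, and the list median was -0.90. In G1KO 2 were called higher, against 2.47% of all genes, and the list median was 0.19. Pdgfra, the receptor that marks many fibroblasts, had -4.63 ± 0.09 in G2KO (-0.59 by a second probe), Thy1 -3.22 ± 0.18, Fbln2 -2.96 ± 0.18 and Twist2 -2.49 ± 0.07. In G1KO, Twist2 (1.94 ± 0.01) and Pdgfrb (1.09 ± 0.01) were higher. The summed intensity of the list was 261747 to 368310 in G2KO and 452176 to 574012 in its WT. In G1KO the sum was also lower than in its WT, at 423182 against 478321 on 1 array and 283413 against 489733 on the other. The ratios of 7 of the 12 genes were nonetheless above 0 in G1KO. S100a4 (-0.42 and -1.67) and Vim (-0.02 and -0.78) differed between the G1KO arrays. In such bulk RNA, fewer cells of a type and less RNA per cell cannot be told apart, and the part of these markers in the SLRP values was not tested.

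Markers of another lineage were set beside Dcn. Of 9 markers of mesothelium, the lining of body cavities, 7 were called lower in G1KO than in its WT, against 4.48% of all genes. The list median was -3.04. The lowest were Gpm6a (-6.19 ± 0.17), Lrrn4 (-5.92 ± 0.02), Upk1b (-5.51 ± 0.14) and Upk3b (-4.25 ± 0.28). Krt19 was higher (2.90 ± 0.11) and Krt18 was not called (-0.08 ± 0.01). All 9 markers were well above background in G1KO and in its WT. Their summed intensity was 236416 to 292959 in the WT of G1KO, 53796 to 63112 in G1KO, 4007 to 4341 in G2KO and 1915 to 1983 in the WT of G2KO. Of the 9, 3 were detected in the G2KO pair, with Msln higher (1.60 ± 0.20), Krt19 lower (-1.40 ± 0.16) and Krt18 not called. Krt8, Wt1, Upk3b, Upk1b, Lrrn4 and Gpm6a were not detected in that pair. The part of mesothelial cells in the Dcn ratio was not tested.

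Markers of tissues rich in SLRPs were less uniform. Their counts stand against 6.95% of all genes called in G1KO and 7.56% in G2KO. Of 9 detected markers of cartilage and bone, Spp1 (3.76 ± 0.21) and Sox9 (1.32 ± 0.19) were higher in G1KO, and in G2KO Sox9 (-3.08 ± 0.12, and -2.71 and -0.50 by other probes), Spp1 (-2.26 ± 0.19) and Col2a1 (-1.50 ± 0.02, but 0.63 by a second probe) were lower. Of 6 for tendon, Egr1 (1.41 ± 0.27) and Tnc (1.08 ± 0.04) were higher and Scx (-1.35 ± 0.10) lower in G1KO, and Tnmd was at least 4.86-fold lower in G2KO. Smooth muscle markers had 2 calls of 5 in G1KO, Cnn1 (1.57 ± 0.01) and Myh11 (1.03 ± 0.00), and 0 of 6 in G2KO. In G2KO the neural markers Sox2 (5.59 ± 0.35) and Nes (3.37 ± 0.23) were higher and Map2 (-1.24 ± 0.04, but -0.41 and -0.30 by other probes) lower, and in G1KO S100b (2.60 ± 0.19) and Nes (2.34 ± 0.17) were higher and Erbb3 (-1.28 ± 0.17) lower. Krt14 (-2.09 ± 0.08) and Emcn (-2.65 ± 0.08), of epithelium and endothelium, were lower in G1KO, and Erg (-3.11 ± 0.02, but -0.26 by a second probe) in G2KO. No marker of skeletal muscle or blood was called in either comparison, but few were detected. For skeletal muscle these were 2 of 6 in G1KO and 1 of 6 in G2KO, and for blood 4 of 6 and 3 of 6.

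The genes whose pair of ratios was most like that of Aspn, by Euclidean distance over both comparisons among 15653 other genes, were Col11a1 (distance 0.57), Igsf10 (0.65, with ratios of 1.98 and -5.13), Col6a3 (0.94), Dkk2 (1.06, with 1.26 and -4.82) and Clmp (1.07, with 0.77 and -5.37). A pair of them are collagens that were counted above, and Dkk2 encodes a Wnt antagonist. Those nearest to Dcn were Mst1r (0.54, with -4.10 and -0.81), Gatm (0.58, with -3.52 and -1.58), Rspo1 (0.64, with -4.06 and -0.70), Bst1 (0.65, with -4.25 and -0.73) and Il18 (0.72, with -4.05 and -0.62). None of these 5 is a matrix gene, as they encode a receptor kinase, an enzyme of creatine synthesis, a Wnt agonist, an ectoenzyme and a cytokine. No member of the SLRP family was among the 5 nearest to either. The distances rest on 2 ratios each and are given as a description.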

How the data were processed

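The data were mRNA levels in 4 two-colour Agilent whole-genome mouse arrays, 2 for G1KO against WT and 2 for G2KO against WT, with dyes exchanged. Spots had been quantified by the authors in Agilent Feature Extraction, 10.5.1.1 in the file headers and 9.1 in the submitters' processing notes. Deposited scanner files hold intensity per spot on a linear scale, with background, a log10 ratio of Cy5 over Cy3 and flags for dim, saturated and outlying spots. The series table deposited by the authors gives log10 ratios too, which matched those of the scanner software at r = 0.999999 (-0.999999 on swapped arrays) and thus run knockout over WT. All column medians of that table were 0.

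Intensities were corrected by normexp (offset 50) and normalised by loess within arrays in limma 3.58.1 (R 4.3.3), leaving out control spots and 114 to 203 outlier spots per array. Spots of a probe were averaged, and levels came from Aquantile normalisation. The log2 ratios of both arrays correlated at r = 0.952 and 0.959. Of each array 43379 gene spots were used, no gene spot was saturated, and precision is limited by how many arrays there were. For a list, each gene was taken by its brightest probe. A genotype that did not rise well above background on any of its arrays allowed only a bound, from the lowest signal well above background or the own signal of the probe, whichever is higher.

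Names were taken from RefSeq by accession for 24488 probes, by symbol for 6240 and by older symbol for 2385, and kept from the file for 8061. Genes named were all 10 members, the label checks, called neighbours within 500 kb, the 5 genes nearest to Aspn and Dcn, and up to 4 called genes per list with the largest ratios, or all where 5 or fewer were counted. Members, lists and rules were chosen with earlier results of these data known, and the comparison of the WT cultures was added after their levels were seen. One gene of the lists is not reported here. The procedure was tested on simulated arrays with changes placed in brighter probes only, so that test does not cover the dim SLRP probes. All 4 arrays lay on 1 slide in 1 scan, so no batch term was possible.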

Additional observations from a re-analysis of the deposited data

Results flagged for a closer look

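Aspn and Omd drew attention because they differed in opposite directions in the 2 comparisons on every array. For Aspn the mean log2 ratio was 1.78 (G1KO) against -5.75 (RNA labelled G2KO), and for Omd 1.18 against -4.15. The difference between the comparisons was not tested, since each genotype has 1 replicate. Each comparison had its own WT, and the level of both genes also differed between these WT cultures.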

How the results depend on the processing

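Each ratio set a knockout beside its WT on the same array. No paired test was possible, because the labels give no replicate numbers and each genotype had 1 replicate. With 1 culture per genotype, none of the differences has an error from separate cultures, and the dim genes (Lum, Fmod, Prelp and Omd in the WT of G1KO) have ratios that the offset pulls toward 0.

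Of 95 ratios of single SLRP probes recomputed with another ratio, background correction or centring, 51 moved by more than the SD between arrays, 44 by less, and 0 reversed. Dcn in G1KO and Aspn, Omd, Ogn and the first probe of Bgn in G2KO were called in all 13 settings, and Aspn, Omd and Lum in G1KO in 12, all but the 4-fold threshold. With the series table the ratio of Aspn in G2KO was -7.18. The second Dcn probe was called in 5 of 13 settings in G1KO. The second Bgn probe in G2KO was lost at 4-fold and when both genotypes had to be well above background, and Dcn in G2KO at 4-fold and under median centring, where its mean ratio was -1.32.

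For G1KO, the count of all called probes (1479) was 2855 with the log ratio of the scanner software, 2849 with the series table, 813 with median centring, 385 at 4-fold and 3341 at 1.5-fold. The SLRP count of 4 became 1 at 4-fold, and the SLRP median of 0.70 was 1.47 with the scanner software, 1.47 with the series table, 0.39 without a filter on dim probes and 0.48 to 0.92 with either array left out. For G2KO, the count of 1619 was 3396, 3392, 955, 467 and 3715 under the same 5 settings. The SLRP median of -2.60 was -2.89 with the scanner software and with the series table, -2.68 without background correction, -2.74 with an offset of 16, -2.54 with median centring, -1.04 without a filter, -2.13 with the mean of the probes of a gene, and -2.59 to -2.53 with either array left out. The SLRP probes at least 2-fold apart between the WT cultures, 4 in number, were 7 at 1.5-fold; these alternatives were chosen after seeing the data.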
